A study of Mus musculus with 15 samples.

Results

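The protein genes of the large (60S) ribosomal subunit were followed in erythroid progenitors of the mouse fetal liver that carried an Rpl5 mutation. The genes are those named for a large subunit protein, with no pseudogenes and without Rpl5, the mutated gene, and Rpl11, its partner in the 5S particle. All 45 were found once in each deposited table, out of 55487 mouse genes, and all 45 passed the filter on low counts in every fit. The libraries came from E12.5 embryonic livers of strain 129S6/SvEvTac. The labels divide them into 2 groups of mice. Group 1 held 3 wildtype and 3 Rpl5 mutant libraries, for which polyA RNA is given as the molecule. Group 2 held 3 wildtype libraries, 3 mutant libraries and 3 mutant libraries called low-yield, for which total RNA is given. For the 6 mutant libraries of group 2, low-yield ones included, a deposited sample sheet gives Rpl5plusSkax23Jus. The sample labels give neither an allele, nor whether it was heterozygous, nor the number of embryos behind a library, and they do not say of what the yield was low. Whether libraries of one group came from separate litters is not given either, so p-values measure the spread between these libraries, which may in part be technical.

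A cytosolic large subunit is built from ribosomal RNA and one copy of most of these proteins, with the acidic stalk proteins present in several copies. The proteins join in order during assembly in the nucleolus, nucleoplasm and cytoplasm, and a shortage of one of them usually stops assembly of the whole subunit. Heterozygous loss of any of several ribosomal protein genes, RPL5 among them, causes Diamond Blackfan anemia, in which red cell precursors fail. Most ribosomal protein mRNAs belong to a class whose translation, more than its level, is regulated through a pyrimidine tract at the start of the mRNA.

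Library totals were 48510828 to 58513669 counts in group 1 and 24954324 to 44827821 in group 2. The 45 genes together took 3.93% to 4.51% of the counts of a group 1 library and 2.60% to 3.16% of a group 2 library. The kind of RNA and the group of mice cannot be told apart, so levels are tested here only within a group. Rpl5 itself was lower in the mutants by the fit across all genes (edgeR quasi-likelihood test with Benjamini-Hochberg adjustment, as for every adjusted p below unless another tool is named): log2 fold change -0.32 (adjusted p 0.00971) in group 1, -0.46 (0.0117) in group 2 and -0.44 (0.0087) in the low-yield mutants. Rpl11 had 0.12, 0.05 and -0.03 in this order, with adjusted p of 0.229 or more. All 11 erythroid markers looked up were above 0 in each library. In group 1 their summed level was 5535 to 6655 CPM (normalised counts scaled to library size) among wildtype libraries, against 3570 to 3700 among mutants. In group 2 the sums were 7762 to 12873 for wildtype, 5481 to 6440 for mutants and 4824 to 6086 for low-yield mutants. The 6 granulocyte markers summed to 53.3 to 353 CPM in group 1 wildtype and 109 to 817 in mutants, and to 6.62 to 13.2 in group 2 wildtype, 49.6 to 140 in mutants and 91.7 to 163 in low-yield mutants. The 7 hepatocyte markers summed to 28.9 to 53.8 CPM in group 1 wildtype and 4.90 to 17.6 in mutants, without overlap, and to 8.26 to 64.6 in group 2 wildtype, 7.29 to 40.8 in mutants and 35.2 to 41.3 in low-yield mutants. The 4 megakaryocyte markers summed to 13.1 to 23.5 CPM and 18.8 to 32.5 in group 1, and in group 2 to 11 to 13.6 in wildtype (Ppbp at 0), 18.4 to 18.7 in mutants and 27.4 to 36.4 in low-yield mutants, without overlap. The 7 macrophage markers summed to 0.411 to 11.3 over the libraries, with Cd5l at 0 in each group. The part of these shifts in the results below was not tested. In such bulk samples, fewer cells of a type and less RNA per cell cannot be told apart.

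The mRNAs of the large subunit were nearly flat between genotypes, and one gene stood out by size. Rpl22l1, a close paralogue of Rpl22, fell to about the same fraction of its wildtype level in each mutant group (0.502 in group 1, 0.545 in group 2 and 0.570 in the low-yield mutants). In group 1 it was the single member called, where 12.6% of the 14048 genes tested were called (5.79% higher and 6.78% lower). In group 2, 2 members were called in the mutants, Rpl22l1 lower and Rplp0 higher, against 6.27% of 15024 genes (3.32% higher and 2.95% lower). The same 2 were called in the low-yield mutants, beside 6.68% of the genes tested on the higher side and 5.86% on the lower side. With the replicate number as a block, which paired the libraries of group 1, 2863 genes in place of 1766 were called there and Rpl22l1 was again the single member. The call of Rplp0 was lost when its processed pseudogenes were counted with it.

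The other members moved little in either direction. In group 1, 41 of the 45 lay above zero, with a median log2 fold change of 0.09 beside 0.01 over all genes tested. In group 2 the counts above zero were 27 in the mutants and 30 in the low-yield mutants, with medians of 0.02 and 0.05 beside -0.01 and 0.00 over all genes. A change of less than 0.25 was fitted for 44, 40 and 41 of the 45 in these 3 comparisons, and for 58.2%, 57.9% and 53.2% of all genes. The data bound the changes fairly closely: the 95% interval lay between -0.5 and 0.5 for 43, 39 and 39 of the members. The median standard error of a member was 0.07 in group 1 and 0.11 in group 2, beside 0.12 and 0.16 over all genes. In these 3 comparisons the members' median moved by no more than 0.03 under the other scalings tried. Single libraries moved it further: with one left out it ran from 0.04 to 0.14 in group 1, with 32 to 42 members above zero. In the group 2 mutants it ran from -0.05 (14 above zero, without wildtype replicate 3) to 0.12 (40 above zero, without wildtype replicate 1). In the low-yield mutants it ran from -0.01 (21 above zero, without low-yield replicate 3) to 0.13 (42 above zero, without wildtype replicate 1). The direction of the family's median in group 2 thus changed with the library left out.

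**Figure D1:**
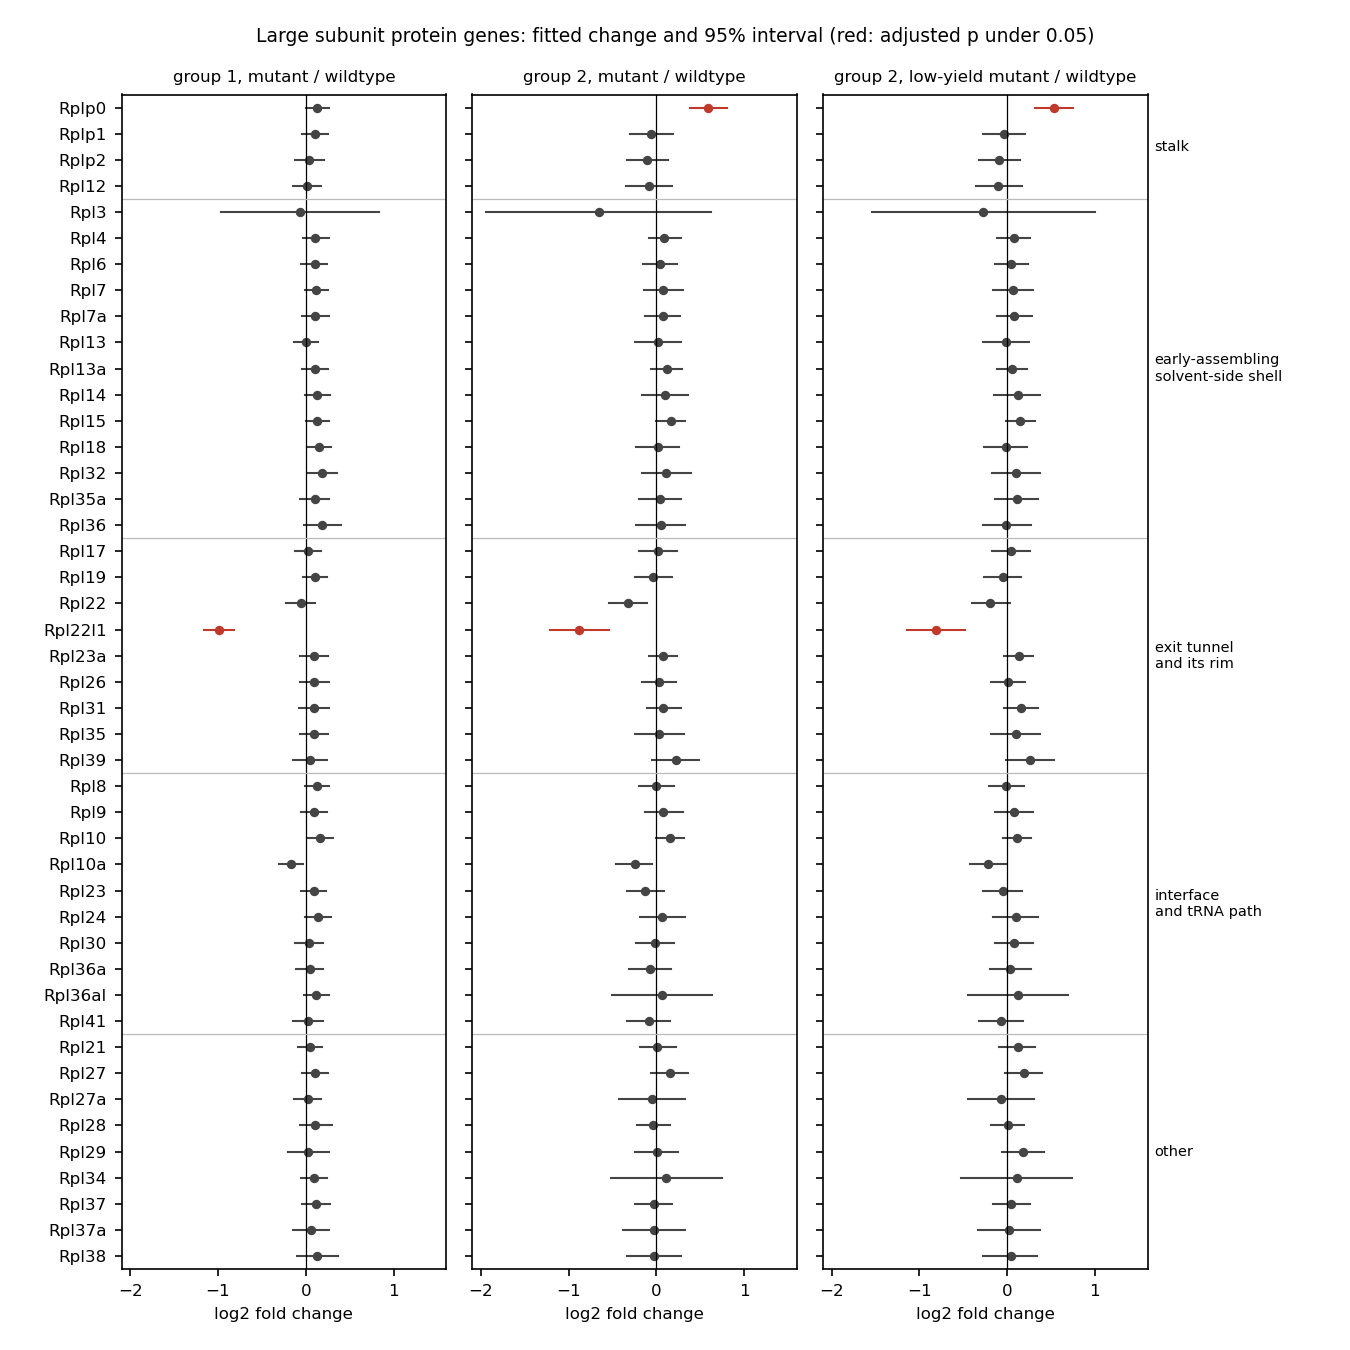
Log2 fold change (horizontal axis) of each of the 45 genes (vertical axis, ordered by place in the subunit) against wildtype in the 3 mutant groups, with points for the fitted value, lines for the 95% interval and red for an adjusted p under 0.05. Rpl22l1 lies at -0.99, -0.88 and -0.81, Rplp0 is called in group 2 alone, and the widest intervals in group 2 belong to Rpl3, Rpl34 and Rpl36al.

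The median level of the family moved between libraries of one group by more than the fitted medians above. Within group 2 wildtype, the median member stood 0.17 above the mean wildtype level on the log2 scale in replicate 1, and at -0.06 and -0.10 in replicates 2 and 3. The mutant libraries of group 2 stood at 0.06, -0.13 and 0.13, and the low-yield libraries at 0.09, -0.13 and 0.15. In group 1 the wildtype libraries stood at 0.02, -0.09 and 0.06 and the mutants at -0.01, 0.11 and 0.17. The ranges of wildtype and mutant libraries thus overlapped in both groups of mice. The coefficient of variation between the 3 libraries of a group had a median over members of 6.05% to 11.6% in the 5 groups, beside 9.03% to 14.2% over all genes tested.

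**Figure D2:**
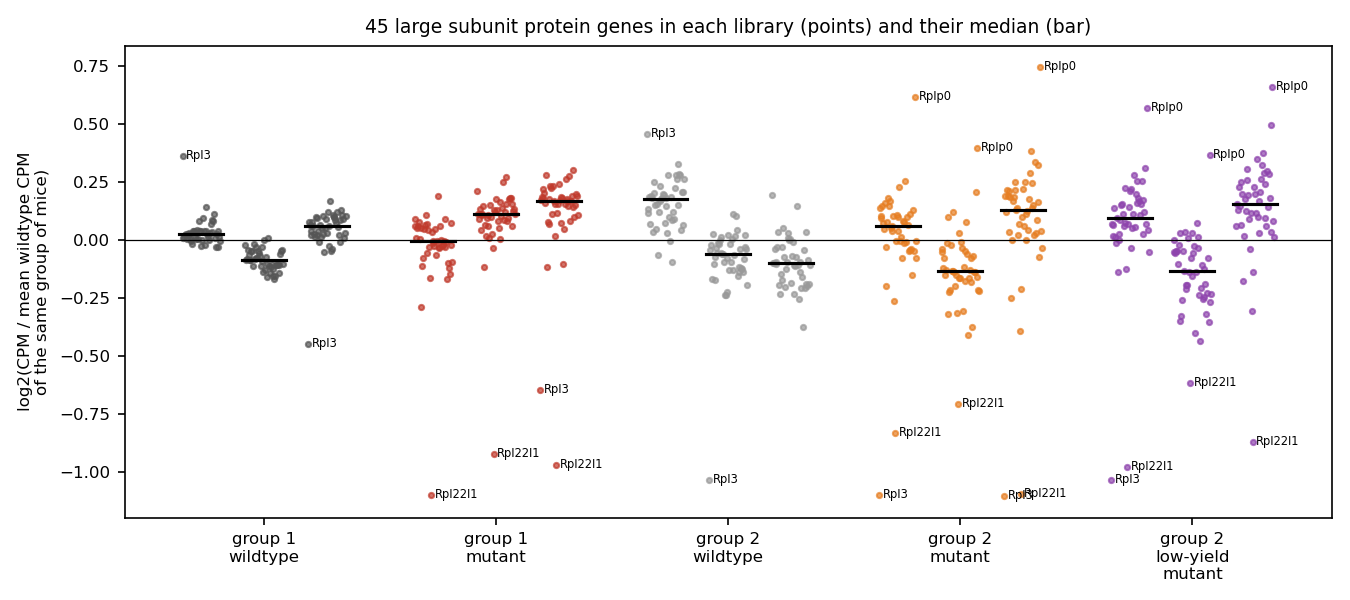
Log2 ratio of each gene's CPM to its mean in the wildtype libraries of the same group of mice (vertical axis), for 15 libraries in 5 groups (horizontal axis). Points are the 45 genes and bars their median, which runs from -0.13 to 0.17; Rpl22l1 lies below the cloud in all 9 mutant libraries and Rpl3 in some libraries of every group.

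Among the proteins at the mouth of the nascent chain exit tunnel and its surroundings (9 genes), Rpl22l1 was the single gene called in each mutant group. It encodes a protein that can take the place of Rpl22 in the subunit, and Rpl22 is known to hold the level of Rpl22l1 mRNA down. Rpl22l1 lies on chromosome 3 of GRCm38 at 28805436 to 28807424 on the forward strand. In group 1 its level was 66.7, 61.8 and 60.8 CPM in the wildtype libraries and 29.5, 33.3 and 32.2 in the mutants. The group 2 libraries gave 22.8, 16.9 and 20.0 in wildtype, 11.2, 12.2 and 9.32 in mutants and 10.1, 13.0 and 10.9 in low-yield mutants. In neither group of mice did a mutant library reach the lowest wildtype library. The log2 fold changes were -0.99 (SE 0.08, adjusted p 2.53e-05) in group 1, -0.88 (SE 0.16, adjusted p 0.00432) in the group 2 mutants and -0.81 (SE 0.15, adjusted p 0.00314) in the low-yield mutants. Over both groups of mice the value was -0.95 (SE 0.08, adjusted p 1.66e-07). It remained called whichever library was left out. Its row held 98.8% to 99.8% of the counts that it shared with its 4 annotated copies, and Gm33051, an antisense gene that overlaps its end, was at 0 in every library.

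Rpl22, its paralogue (chromosome 4, 152325742 to 152334071), did not pass the threshold. In group 1 it stood at 315, 290 and 337 CPM in wildtype and 280, 306 and 318 in mutants, which overlap. In group 2 it stood at 109, 81.8 and 98.2 in wildtype, 80.2, 77.4 and 73.5 in mutants and 88.3, 87.5 and 78.0 in low-yield mutants. The 3 mutant libraries of group 2 thus lay below the wildtype libraries, while the low-yield range ran into them. The log2 fold changes were -0.06 (adjusted p 0.636), -0.32 (0.0746) and -0.19 (0.259), and -0.19 (0.0669) over both groups of mice. Rpl22 passed in the group 2 mutants and over both groups with DESeq2 (adjusted p 0.0456 and 0.0389) and with the replicate number as a block (adjusted p 0.0411 and 0.0382). Since the numbers of group 2 were not taken as pairs, the fits with the block give no firm ground for this call. It also passed in the edgeR fit without group 2 wildtype replicate 2 (log2 fold change -0.43, adjusted p 0.033), and over both groups without group 1 wildtype replicate 2 (-0.23, adjusted p 0.0388) and, just under the threshold, without group 2 wildtype replicate 2 (-0.22, adjusted p 0.05 after rounding). Per kilobase of its chosen transcript, Rpl22 had 153 ± 11.5 CPM in group 1 wildtype and Rpl22l1 114 ± 5.71 (SD, n = 3), and in group 1 mutants 147 ± 9.46 and 57.4 ± 3.52. In group 2 the same levels per kilobase were 47.0 ± 6.71 and 36.0 ± 5.35 in wildtype and 37.6 ± 1.65 and 19.8 ± 2.65 in mutants.

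The remaining 7 tunnel genes, which include Rpl17, Rpl26, Rpl31 and Rpl39, lay between -0.05 and 0.26 in the 3 comparisons with wildtype, and none was called. The list as a whole had medians of 0.09, 0.03 and 0.04.

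**Figure D3:**
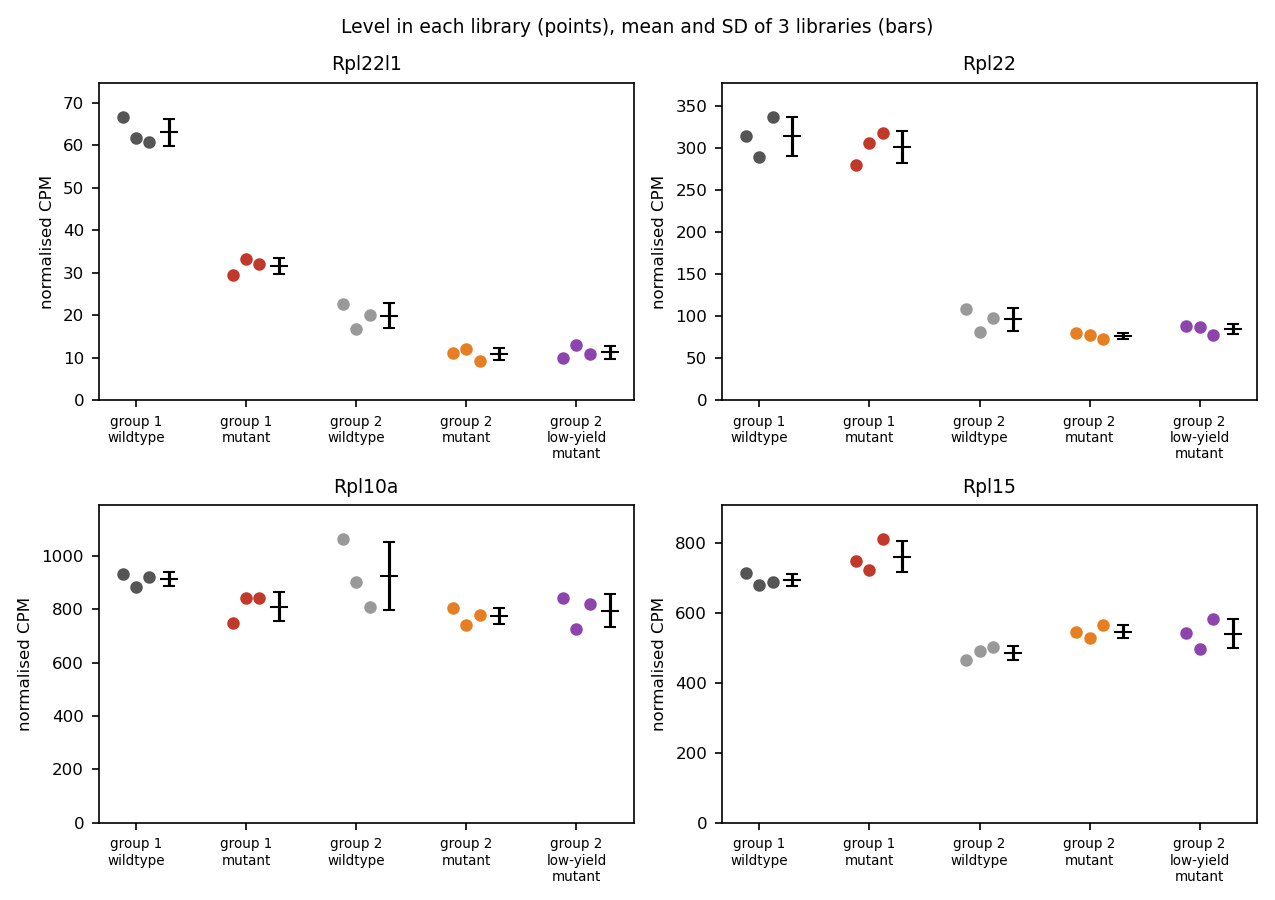
Normalised CPM (vertical axis, from 0) of Rpl22l1, Rpl22, Rpl10a and Rpl15 in the 5 groups (horizontal axis), with points for the libraries and bars for the mean and SD of 3. Rpl22l1 drops from 60.8 to 66.7 in group 1 wildtype to 29.5 to 33.3 in mutants, whereas Rpl22 overlaps between them.

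The stalk recruits the translation factors that hydrolyse GTP and consists of Rplp0, Rplp1 and Rplp2 on a base that includes Rpl12. Rplp0 (chromosome 5, 115559467 to 115563727, forward strand) had 3178, 3002 and 3119 CPM in group 1 wildtype and 3261, 3378 and 3558 in mutants. Every group 1 mutant library was above the wildtype libraries, but the difference of 0.13 did not pass (adjusted p 0.189). In group 2 its row held 1710, 1659 and 1538 CPM in wildtype, 2502, 2151 and 2739 in mutants and 2426, 2104 and 2582 in low-yield mutants, with no overlap. The log2 fold changes were 0.59 (SE 0.10, adjusted p 0.00306) and 0.54 (SE 0.10, adjusted p 0.00267). Rplp1, Rplp2 and Rpl12 lay between 0.01 and 0.10 in group 1 and between -0.11 and -0.04 in both mutant groups of group 2, and none was called.

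Sequences close to Rplp0 also carried counts in rows of their own. Of its 8 annotated copies, the processed pseudogene Gm8730 (chromosome 8, 102864845 to 102865798) took the most counts. It matches the Rplp0 transcript over 954 bases with 12 substitutions and no gap, all of them within the coding sequence. Only 20 of the 804 windows of 151 bases, the read length, hold no substitution. To show one of these differences, the following lines give the stretch around the substitution A817G (exon 6), with positions counted from the first base of the Rplp0 transcript, the base of Rplp0 named first and the differing base in capitals.
Rplp0 at 817: cagatcgggtacccAactgttgcctcggt
Gm8730 at 817: cagatcgggtacccGactgttgcctcggt

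The division of counts between Rplp0 and its copies followed the genotype in group 2 and not in group 1. In group 1, 84.9% to 86.0% of the joint counts stood in the Rplp0 row in wildtype and 84.9% to 85.6% in mutants. Group 2 gave shares of 55.4%, 59.2% and 57.9% in wildtype, 79.5%, 80.0% and 80.1% in mutants and 79.7%, 80.0% and 79.5% in low-yield mutants. Gm8730 alone had 1151, 948 and 924 CPM in group 2 wildtype and 432 to 568 in the 6 mutant libraries of that group, without overlap. The fit gave log2 fold changes of -0.97 (SE 0.11, adjusted p 3.61e-04) and -1.01 (SE 0.11, adjusted p 1.33e-04) for Gm8730, and 0.16 (adjusted p 0.163) in group 1. Gm9625, another copy, had -0.97 (adjusted p 6.21e-04), -1.03 (2.15e-04) and 0.21 (0.102) in the same order. Whether the counts in these rows are reads of the copies or of Rplp0 was not tested. Rplp0 is also the member nearest to Rpl5, which lies at 107900502 to 107909005 of the same chromosome, 7.65 Mb away. Rpl6, Rpl21 and Rpl9 lie 13.3, 38.9 and 42.5 Mb from Rpl5, and their changes were 0.01 to 0.12 in the 3 comparisons with wildtype. With the copies summed, Rplp0 had 3694, 3522 and 3673 CPM in group 1 wildtype and 3811, 3977 and 4188 in mutants, and in group 2 it had 3089, 2800 and 2658 in wildtype, 3146, 2689 and 3422 in mutants and 3043, 2631 and 3246 in low-yield mutants. These sums overlapped in group 2, and their log2 fold changes there were 0.12 (adjusted p 0.589) and 0.06 (adjusted p 0.753).

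**Figure D4:**
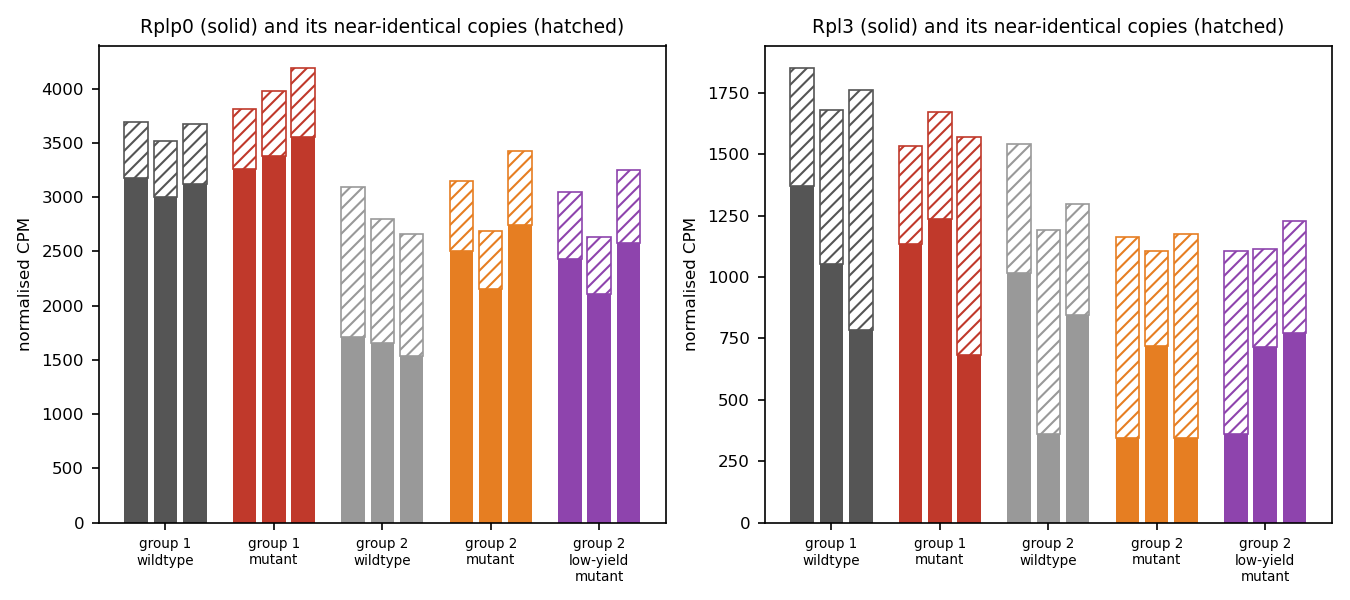
Normalised CPM (vertical axis) of Rplp0 (left) and Rpl3 (right) in each of the 15 libraries (bars, by group), with the gene's own row solid and its annotated copies hatched. The solid part of Rplp0 is 55.4% to 59.2% in group 2 wildtype and 79.5% to 80.1% in the mutants of that group; that of Rpl3 varies from 29.4% to 74.1% within groups.

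The proteins that join early and form the solvent-side shell (13 genes) held no call within a group of mice, and 12, 12 and 9 of the 13 lay above zero, with medians of 0.11, 0.07 and 0.07. Rpl3, which reaches towards the catalytic centre and is among the first to bind, had the widest interval of all members. Its row held 1371, 1052 and 783 CPM in group 1 wildtype, 1136, 1238 and 683 in mutants, and in group 2 it held 1015, 362 and 846 in wildtype, 346, 720 and 345 in mutants and 362, 714 and 772 in low-yield mutants. Wildtype and mutant libraries overlapped in both groups of mice, and the log2 fold changes were -0.07 (SE 0.34), -0.66 (SE 0.53) and -0.27 (SE 0.52), none of them called.

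Much of this spread lay in how counts were divided with Rpl3-ps1, a processed pseudogene on chromosome X at 13202571 to 13203780. Over 1210 bases it differs from the Rpl3 transcript by 2 substitutions, C137A in exon 2 and T866C in exon 6, so that 851 of 1060 windows of the read length (80.3%) are the same letter for letter. The lines below show these 2 places, the only differences within the aligned bases, in the transcript's direction and with the differing base in capitals.
Rpl3 at 137: ggcttcctgcctcgCaagcgcagcagccg
Rpl3-ps1 at 137: ggcttcctgcctcgAaagcgcagcagccg
Rpl3 at 866: caccctgcccgtgtTgccttctctgtggc
Rpl3-ps1 at 866: caccctgcccgtgtCgccttctctgtggc

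The share of joint counts in the Rpl3 row fell into separate levels that did not follow the genotype. Group 1 gave 74.1%, 62.6% and 44.4% for wildtype against 74.0%, 74.0% and 43.5% for mutants. Group 2 gave 65.9%, 30.5% and 65.2% for wildtype, 29.7%, 65.0% and 29.4% for mutants and 32.7%, 64.0% and 62.9% for low-yield mutants. In group 2 each library was thus near either 30.5% or 65.0%, with both levels in all 3 groups. In group 2, the 6 libraries with the Y-linked Ddx3y at 0 had shares from 29.4% to 65.9%, and the 3 with Ddx3y at 36.7 to 48.1 CPM had 30.5%, 65.0% and 62.9%. In group 1, the library with Ddx3y at 0 had 74.0%, and the 5 others had 43.5% to 74.1%. The part of the embryos' sex in these shares was not tested. Replicates 1 and 2 of group 1 wildtype held both Xist (525 and 865 CPM) and Ddx3y (49.3 and 29.9 CPM). With copies summed, Rpl3 had 1850, 1680 and 1763 CPM in group 1 wildtype and 1535, 1673 and 1569 in mutants. In group 2 the sums were 1542, 1190 and 1297 in wildtype, 1163, 1107 and 1176 in mutants and 1107, 1115 and 1227 in low-yield mutants. The summed counts were lower in every mutant library than in any wildtype library of group 1, and lower in the 3 group 2 mutants than in their wildtype. The fitted differences of the sums were -0.15 (adjusted p 0.158), -0.23 (0.172) and -0.22 (0.131), and over both groups of mice -0.19 (SE 0.06, adjusted p 0.0278), a call that the gene's own row did not give (-0.36, SE 0.33, adjusted p 0.504).

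Fitting both groups of mice together, with the group as a term, gave 5 members called, while 19.6% of the 15954 genes tested were called (9.80% higher and 9.80% lower). The 12 libraries are the same as in the separate fits, without the low-yield mutants. Rpl22l1 and Rpl10a were lower, and Rplp0, Rpl10 and Rpl15 were higher. With copies summed, 4 were called (Rpl3, Rpl10, Rpl10a and Rpl22l1), and Rplp0 went from 0.36 (adjusted p 0.0048) to 0.12 (adjusted p 0.169). The median member changed by 0.06, beside 0.00 over all genes.

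Among the proteins at the subunit interface and along the path of the tRNAs (10 genes), Rpl10a and Rpl10 were the 2 called. Rpl10a (chromosome 17, 28328471 to 28331033), which forms the mobile L1 stalk beside the exit site for tRNA, had 933, 884 and 922 CPM in group 1 wildtype and 748, 841 and 842 in mutants. In group 2 it had 1063, 903 and 809 in wildtype, 805, 742 and 778 in mutants and 841, 726 and 819 in low-yield mutants. The mutant libraries lay below the wildtype libraries in both groups of mice, while the low-yield mutants overlapped wildtype. The separated libraries are those of the fit that called Rpl10a, so their separation is no added evidence. The log2 fold changes were -0.17 (adjusted p 0.107), -0.25 (0.138) and -0.22 (0.163), and -0.21 (SE 0.06, adjusted p 0.0146) over both groups. This call was kept with each of the 12 libraries left out in turn. Rpl10 (chromosome X, 74270812 to 74273135), one of the last proteins to join and needed for the final checks of a new subunit, had 812, 773 and 814 CPM in group 1 wildtype and 829, 884 and 970 in mutants. In group 2 it had 725, 673 and 725 in wildtype, 790, 757 and 805 in mutants and 755, 722 and 811 in low-yield mutants. Over both groups it was higher by 0.15 (SE 0.05, adjusted p 0.0306), and in the separate groups by 0.16, 0.15 and 0.11 with adjusted p of 0.149 or more. The interface list as a whole had medians of 0.09, -0.01 and 0.05, and none of its genes was called within a group of mice.

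Rpl36a and Rpl36al, neighbours of the exit site that differ little in protein sequence, are counted from different chromosomes (X and 12). Rpl36a had 540, 457 and 528 CPM in group 1 wildtype and 498, 538 and 538 in mutants, and in group 2 269, 204 and 201 in wildtype, 217, 198 and 228 in mutants and 250, 206 and 234 in low-yield mutants. Rpl36al had 287, 252 and 275 in group 1 wildtype and 289, 290 and 305 in mutants. In group 2 the values of Rpl36al were 231, 179 and 142 in wildtype, 199, 142 and 232 in mutants and 219, 155 and 226 in low-yield mutants. Apart from Rpl36al in group 1, the ranges overlapped, and the changes against wildtype ran from -0.07 to 0.12 with adjusted p of 0.25 or more. Per kilobase of transcript, Rpl36a stood at 1052 ± 92.2 CPM and Rpl36al at 515 ± 33.6 in group 1 wildtype (SD, n = 3). In group 2 wildtype they stood at 465 ± 80.0 and 350 ± 84.4.

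Rpl15, a shell protein whose human counterpart is named among the genes of Diamond Blackfan anemia, lies on chromosome 14 at 18267823 to 18271391. It had 714, 681 and 690 CPM in group 1 wildtype and 748, 724 and 811 in mutants, and in group 2 465, 491 and 504 in wildtype, 547, 528 and 565 in mutants and 542, 498 and 582 in low-yield mutants. The mutants lay above wildtype in both groups of mice, and the low-yield mutants overlapped wildtype. The separated libraries are those of the fit that called the gene, so their separation is no added evidence. Over both groups Rpl15 was higher by 0.15 (SE 0.05, adjusted p 0.0377). In the 3 separate comparisons with wildtype it was higher by 0.13, 0.17 and 0.15, with adjusted p of 0.198 or more. Its row held 65.2% to 74.2% of the counts shared with 23 copies, and with these summed the change was 0.13 (adjusted p 0.0536). Without the filter on low counts it was 0.14 (adjusted p 0.0527), which also ended the call. The calls of Rpl10 and Rpl15 lay close to the threshold. With one library left out their values stayed at 0.12 to 0.17 and 0.13 to 0.17, but both calls were lost without any one of replicates 1, 2 and 3 of group 1 wildtype, replicate 3 of group 1 mutants, replicate 2 of group 2 wildtype, or replicates 1 and 3 of group 2 mutants (adjusted p 0.0511 to 0.105). Rpl15 was also lost without replicate 1 of group 2 wildtype (adjusted p 0.0591). Rpl32, another shell protein and one of the 4 members with the highest values over both groups, did not pass (0.15, adjusted p 0.0962). Its libraries held 616, 563 and 653 CPM in group 1 wildtype and 636, 726 and 733 in mutants, and in group 2 451, 430 and 394 in wildtype, 448, 407 and 519 in mutants and 475, 360 and 531 in low-yield mutants.

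A list of members whose human counterparts are named in Diamond Blackfan anemia was set by hand and may not be complete. Its 7 genes (Rpl15, Rpl18, Rpl26, Rpl27, Rpl31, Rpl35 and Rpl35a) lay between 0.09 and 0.15 in group 1. They lay between 0.02 and 0.17 in the group 2 mutants and between -0.01 and 0.19 in the low-yield mutants. None was called within a group of mice and Rpl15 was the one called over both. The 9 members outside the other role lists, such as Rpl21, Rpl34 and Rpl38, had medians of 0.09, -0.03 and 0.05 and no call in any comparison. Of 33 small subunit genes, 1 was called higher in group 1 (Rps27l, the list's values there running from 0.00 to 0.34) and none in the mutants or low-yield mutants of group 2. Their medians against wildtype were 0.10, 0.00 and 0.01, and 32, 16 and 18 of the 33 lay above zero. Among 5 further large subunit genes, 3 were tested and none was called.

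Low-yield mutants did not differ from the other mutants of group 2 in any member by this test. With edgeR, 0 of the 45 were called, as were 0% of the 15024 genes, and 0 members had an unadjusted p under 0.05, beside 3.19% of all genes. DESeq2 also called 0 members. The differences ran from -0.06 to 0.39, the latter for Rpl3 (SE 0.53), and for 42 of the 45 members the 95% interval lay between -0.5 and 0.5. For Rpl22l1 the difference was 0.06, with an interval from -0.29 to 0.41.

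The test of a different response in the 2 groups of mice called 0 members with edgeR and 0 with DESeq2, and 0.0188% of the 15954 genes. Beside 2.14% of all genes tested, 1 of the 45 members had an unadjusted p under 0.05 with edgeR. That was Rplp0, at 0.48 (SE 0.12, adjusted p 1), and with its copies summed the difference was -0.04. Of the 3 genes called over all, 2 were its copies Gm8730 (-1.11, SE 0.14, adjusted p 0.00343) and Gm9625 (-1.16, SE 0.15, adjusted p 0.00343). For Rpl22l1 the difference between groups was 0.14 (95% interval -0.22 to 0.49, adjusted p 1).

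Within one library, levels of the members per kilobase spanned a wide range. Lengths are those of one annotated transcript per gene, so the order is approximate. In group 1 wildtype, Rplp1 was highest at 3162 ± 82.1 CPM per kilobase (SD, n = 3), followed by Rpl8 at 2579 ± 147 and Rpl13 at 2522 ± 32.3, which did not differ beyond their spread. At the low end stood Rpl39 at 238 ± 21.4, Rpl22 at 153 ± 11.5, Rpl22l1 at 114 ± 5.71 and Rpl29 at 26.7 ± 0.837. In group 2 wildtype, Rpl41 was highest at 2397 ± 341, followed within its spread by Rplp1 at 2227 ± 313 and Rpl8 at 2080 ± 252, and the lowest 4 were Rpl39, Rpl22, Rpl22l1 and Rpl29. The place of Rpl41 within group 1 wildtype was 24 of 45, at 851 ± 47.4, and this difference between the groups was not tested. In the mutants of group 2, Rpl22l1 took the last place (19.8 ± 2.65), below Rpl29 (29.2 ± 2.27).

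The row of Rpl29 held 6.52% to 15.1% of the counts shared with its 73 annotated copies, and with these summed it stood at 139 to 326 CPM. It was named after its values were seen, as were the other genes in this account of levels. Over the whole family, 44 of the 45 genes had at least 1 annotated copy with 90% identity or more, 746 copies in all. For 27 genes the own row held at least 95% of the joint counts in every library, and for 7 it held under 75% in some library (Rpl3, Rpl15, Rpl29, Rpl30, Rpl34, Rpl41 and Rplp0). Whether this share followed the stretch of a transcript found letter for letter in a copy was not tested over the family. Rpl10 and Rplp0 are given only as picked examples. For Rpl10, 90.9% of read-length windows recur in a copy and the own row held 94.9% to 98.0% of the counts, whereas for Rplp0 7.10% recur and the own row held as little as 55.4%.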

How the data were processed

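RNA sequencing (151 bp paired-end reads, per the labels' protocols) covered 15 libraries in 5 groups of 3. The deposited tables hold expected counts per gene, deposited as whole numbers (rounding was applied and changed nothing); cutadapt 2.3, STAR 2.7.8a, RSEM 1.3.3 and the GRCm38 build are named, per the submitters' processing notes. RSEM shares reads among similar transcripts, so members with near-identical copies can gain or lose counts to them. Whether counting used strand is not given in the sources used here. The 4 and 5 rows of the 2 tables that name no mouse gene (1.28e-06% and 3.21e-07% of counts) were left out.

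Counts were tested with edgeR 4.0.16 (R 4.3.3): filterByExpr, TMM factors, glmQLFit (robust, non-legacy) and two-sided glmQLFTest, Benjamini-Hochberg adjustment over all genes tested, threshold 0.05. Group 2 was fitted over its 9 libraries; both groups of mice were fitted over 12. Standard errors came from the log2 fold change and F. Normalised CPM used the TMM-scaled totals of each group of mice. Copies were GENCODE M21 transcripts aligned by blastn 2.17.0 at 90% identity or more over at least 150 bases and 50% of the shorter transcript. Pairs of libraries of one group differed beyond sampling noise (chi-square per degree of freedom 18.5 or more). Same-numbered libraries of group 1 deviated together from their group means (correlations 0.56, 0.24 and 0.23). Wildtype replicate 3 and mutant replicate 2 of group 1 also correlated (0.32). A replicate block therefore read the numbers of group 1 as pairs, but the main fits held no such term. Errors, intervals and p-values of group 1 are thus unpaired wherever the block is not named. In group 2 the correlations of same-numbered libraries ran from -0.10 to 0.32, and the numbers were not taken as pairs. Alternatives were DESeq2 1.42.0, RLE or upper-quartile factors, no filter, a replicate block, summed copies, the 6 compared libraries alone, and each library left out. The procedure was tested on simulated counts of independent libraries with a common spread, larger changes than most members had, and no sharing of reads among copies. That test does not bear on small changes or on the division of counts with copies.

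Members, role lists and tests were chosen with earlier results of these data known. Values per library are given for members called in any comparison, the 4 highest and 4 lowest over both groups of mice, and 2 paralogue pairs; other members are named as examples.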

Additional observations from a re-analysis of the deposited data

How the results depend on the processing

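DESeq2 called 4 in group 1 in place of 1 (Rpl10a, Rpl18 and Rpl32 besides Rpl22l1), while its calls over all genes there were 2307 in place of 1766. Summing the copies left 1 of 2 in the mutants and 1 of 2 in the low-yield mutants of group 2, the lost one being Rplp0, and gave 4 in place of 5 over both groups of mice, where Rplp0 and Rpl15 were lost and Rpl3 was gained. Without the filter on low counts, 4 were called over both groups, Rpl15 being lost. Leaving out 1 library gave 1 to 4 members in group 1 (4 without mutant replicate 1: Rpl22l1, Rpl24, Rpl32 and Rpl36, with 1654 genes called over all). It gave 2 to 3 in each comparison of group 2 with wildtype, and 3 to 7 over both groups of mice. There 3 remained (Rpl10a, Rpl22l1 and Rplp0) without replicate 1 or 3 of group 1 wildtype or replicate 3 of group 1 mutants. The same 3 remained without replicate 1 or 3 of group 2 mutants. The cause was not tested. These fits called 753 to 1729 genes over all in group 1, 425 to 1323 in the group 2 mutants and 900 to 2395 in the low-yield mutants. Over both groups they called 1240 to 1757 genes higher and 1281 to 1872 lower (1568 and 1507 in the fit with 7 members). Leaving out 1 library gave 0 members throughout for low-yield against other mutants and for the difference between groups of mice. With the replicate block, 1, 3, 2, 0, 6 and 0 members were called in the 6 comparisons in the order of the report's fits (group 1, group 2 mutants, low-yield mutants, low-yield against mutants, both groups, difference between groups), the added one being Rpl22 (adjusted p 0.0411 in group 2 and 0.0382 over both groups). Calls over all genes rose with the block too, to 2863 from 1766 in group 1, 1309 from 942 in the group 2 mutants and 2331 from 1884 in the low-yield mutants. Over both groups they rose from 1564 to 2007 higher and from 1564 to 1882 lower. The numbers of group 2 are not taken as pairs. Against wildtype, the log2 fold change of Rpl22l1 stayed between -1.03 and -0.70 and was called under every alternative run. Over all genes, counts of calls in the main fits and with DESeq2 were 942 and 1452 in the group 2 mutants, 0 and 6 for low-yield against other mutants, and 3 and 13 for the difference between groups of mice (5 with the block, 0 with copies summed); without 1 library they fell to 753 in group 1, 425 in the group 2 mutants and 900 in the low-yield mutants. Without low-yield replicate 3, 22 genes separated the low-yield from the other mutants, none of them a member. All members passed the filter on low counts; whether depth limited their calls was not tested.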
